A study of Mus musculus with 3 samples.

Results

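The immediate early transcription factors followed here are a list of 10 genes: Fos, Fosb, Fosl1, Jun, Junb, Egr1, Ier2, Ier3, Atf3 and Myc. They were looked up by symbol among the 20717 rows of a CBTi-seq count table and by Ensembl ID among the 55402 rows of each of a pair of 3' count tables. Of the 10, 9 had a CBTi-seq row; Atf3 had none and was analysed in the 3' tables alone. Each of the 20716 genes in the CBTi-seq table had a count, so a missing row there cannot be told apart from 0 counts. All 10 had a row in the 3' tables, where Fosb had no count in any column.

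The cells were L929, a mouse fibroblast line, either with Rrm2 knocked down (named knock) or without (named control). Rrm2 encodes a subunit of ribonucleotide reductase. The sources used here do not say how the knockdown was made. Each condition was read by CBTi-seq, with 10 knock and 10 control columns in 1 sample, and by a method targeting transcript 3' ends, with 1 library of 8 columns labelled knock and 1 of 8 columns labelled control. Per the labels' protocols, all cells were detached with trypsin, dissociated by pipetting, rinsed in cold buffer and picked singly by capillary into lysis buffer.

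Immediate early genes are transcribed within minutes of a growth factor, stress or mechanical signal, without new protein synthesis, through kinase cascades that act on factors already bound at their promoters. Their RNAs are short lived, so their levels follow the recent signalling of a cell. FOS and JUN family proteins pair through leucine zippers to form AP-1, which binds DNA. EGR1 is a zinc finger factor, ATF3 a stress-induced member of the ATF/CREB family, and MYC pairs with MAX to drive growth genes. IER2 is a nuclear regulator of transcription, and IER3 is a stress-induced regulator of cell survival that is not a classical DNA-binding factor.

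Levels are CPM, a gene's counts scaled to a common total of all gene counts, either in a single column or summed over the columns of a group. Column totals were 153051 to 735871 in CBTi-seq knock and 41570 to 846819 in CBTi-seq control columns. They were 814960 to 1973137 in the 3' library labelled knock and 399393 to 2496457 in the one labelled control. Ratios are knock over control on the log2 scale of summed levels, with exact conditional (Clopper-Pearson) 95% intervals that cover counting error only. Columns of a sample are not replicates, so no difference between the groups was tested, and none of the intervals includes the spread between columns.

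The targeted gene followed its label in CBTi-seq only. Rrm2 was at 350.1 CPM in knock and 480.9 CPM in control CBTi-seq columns, a log2 ratio of -0.46 (-0.56 to -0.35). The difference was modest and the columns overlapped, at 282.7 to 489.4 CPM in knock and 356.1 to 652.3 CPM in control. It was at 148.1 CPM in the 3' library labelled knock against 39.1 CPM in the one labelled control. The 3' libraries are therefore called by their labels, and each 3' direction rests on labels that Rrm2 goes against. Among 12 fibroblast markers 11 had counts in CBTi-seq and 12 in the 3' tables, and Thy1 had no CBTi-seq row. Of the 9 at 20 CPM or more in CBTi-seq, 4 were higher and 5 lower in knock columns, with a median log2 ratio of -0.08; Vim was at 0.13, Col1a2 at -1.26, Pdgfrb at -0.83 and Fn1 at -0.62. The 6 at that level in the 3' libraries were all higher in the one labelled knock, with a median of 1.17. Of all genes at that level, 44.7% were higher in CBTi-seq knock columns, with a median of -0.05. Between the 3' libraries 58.8% were higher under the knock label, with a median of 0.18. Of markers of other cells, Cd68 (leukocytes) stood at 20.0 and 43.5 CPM in CBTi-seq knock and control columns and at 149.96 and 77.8 CPM in the 3' libraries labelled knock and control. Summed over the 8 leukocyte markers, of which 3 had counts in each assay, columns ranged from 5.32 to 47.5 CPM in knock and from 16.1 to 177.4 CPM in control CBTi-seq columns. In the 3' libraries the same sum was 131.1 to 179.1 CPM in columns labelled knock and 65.5 to 115.2 CPM in columns labelled control. Besides Cd68, Csf1r had 30 counts in knock and 50 in control CBTi-seq columns, and Tyrobp 2 and 0. Adgre1 went the other way from Cd68 in the 3' libraries, with 62 counts under the knock label and 67 under the control label. Csf1r had 0 and 1 there. Of 7 epithelial markers 2 had counts in CBTi-seq, with sums of 0 to 5.05 CPM in knock and 0 to 6.18 CPM in control columns, and 3 had counts in the 3' libraries. There Cdh1 was at 110.5 CPM in the library labelled knock and 188.1 CPM in the one labelled control, Epcam had 15 and 48 counts, and Krt8 had 56 and 0 counts. Ptprc, which defines leukocytes, had no row in CBTi-seq and no count in the 3' libraries. Of 5 endothelial markers 0 had counts in CBTi-seq and 4 in the 3' libraries. Their sums there were 18.4 to 47.9 CPM in columns labelled knock and 21.8 to 43.8 CPM in columns labelled control. The part of these markers in the results below was not tested.

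The proximal promoters of Fos, Jun and Junb are shown because these AP-1 subunits had lower CBTi-seq levels in knock columns, and because they carry related elements close to the start. Each run holds the 150 bases before the RefSeq start (GRCm38.p6), read along the gene's strand. Capitals mark TGACG, the core of the cAMP response element bound by ATF/CREB factors, TGACNTCA, an ATF and AP-1 type element, and TATAAA.
Fos, chr12:85473740-85473889, plus strand: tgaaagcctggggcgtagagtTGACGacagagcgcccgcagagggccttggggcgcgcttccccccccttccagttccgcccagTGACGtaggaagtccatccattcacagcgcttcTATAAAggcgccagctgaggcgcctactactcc
Jun, chr4:95052223-95052372, minus strand: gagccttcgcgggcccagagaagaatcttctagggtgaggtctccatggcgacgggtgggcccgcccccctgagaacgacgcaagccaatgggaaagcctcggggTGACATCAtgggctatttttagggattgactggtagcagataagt
Junb, chr8:84978749-84978898, minus strand: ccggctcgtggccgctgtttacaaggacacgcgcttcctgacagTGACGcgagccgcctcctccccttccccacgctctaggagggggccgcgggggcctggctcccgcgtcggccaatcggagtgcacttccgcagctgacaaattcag

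Fos holds TGACG at positions -129 to -125 and -66 to -62 from its start and TATAAA at -33 to -28, Jun holds TGACNTCA at -45 to -38, and Junb holds TGACG at -106 to -102. RefSeq promoters were at hand for 6 members, these 3 with Fosb, Ier3 and Atf3. Both strands were searched, and TGACG overlaps TGACNTCA where N is G. TGACG was present in 4 of the 6 (Fos, Fosb, Junb and Atf3) and in 13.3% of 32851 mouse promoters of the same length. TGACNTCA was present in 1 of the 6, Jun, against 5.70% of all promoters, and TATAAA in 1, Fos, against 7.57%. The AP-1 element TGANTCA, the E-box CACGTG and the CArG box were in none of the 6 windows, and in 4.24%, 4.30% and 0.916% of all promoters. A match describes letters in this window and not a bound site.

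In CBTi-seq, Fos, Junb, Ier2, Egr1 and Jun were lower in knock than in control columns, Fosl1 was at a like level, and Myc and Ier3 were higher. Fos stood apart in size, at 30.4% of the control level; the other ratios were under 2-fold. Of the 9 members with a row, 8 reached a mean of 20 CPM and 7 reached 50 CPM. None of the 7 was at least 2-fold apart; of the 5243 genes at 50 CPM or more, 1.01% differed that far. Over the 8 members at 20 CPM or more the median log2 ratio was -0.36, with 2 higher and 6 lower. Over all 8391 genes at that level it was -0.05, with 44.7% higher and 55.3% lower. Single columns of knock and control overlapped for every member, as they did for nearly all genes: 0.131% of the 8391 had columns wholly apart.

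**Figure D1:**
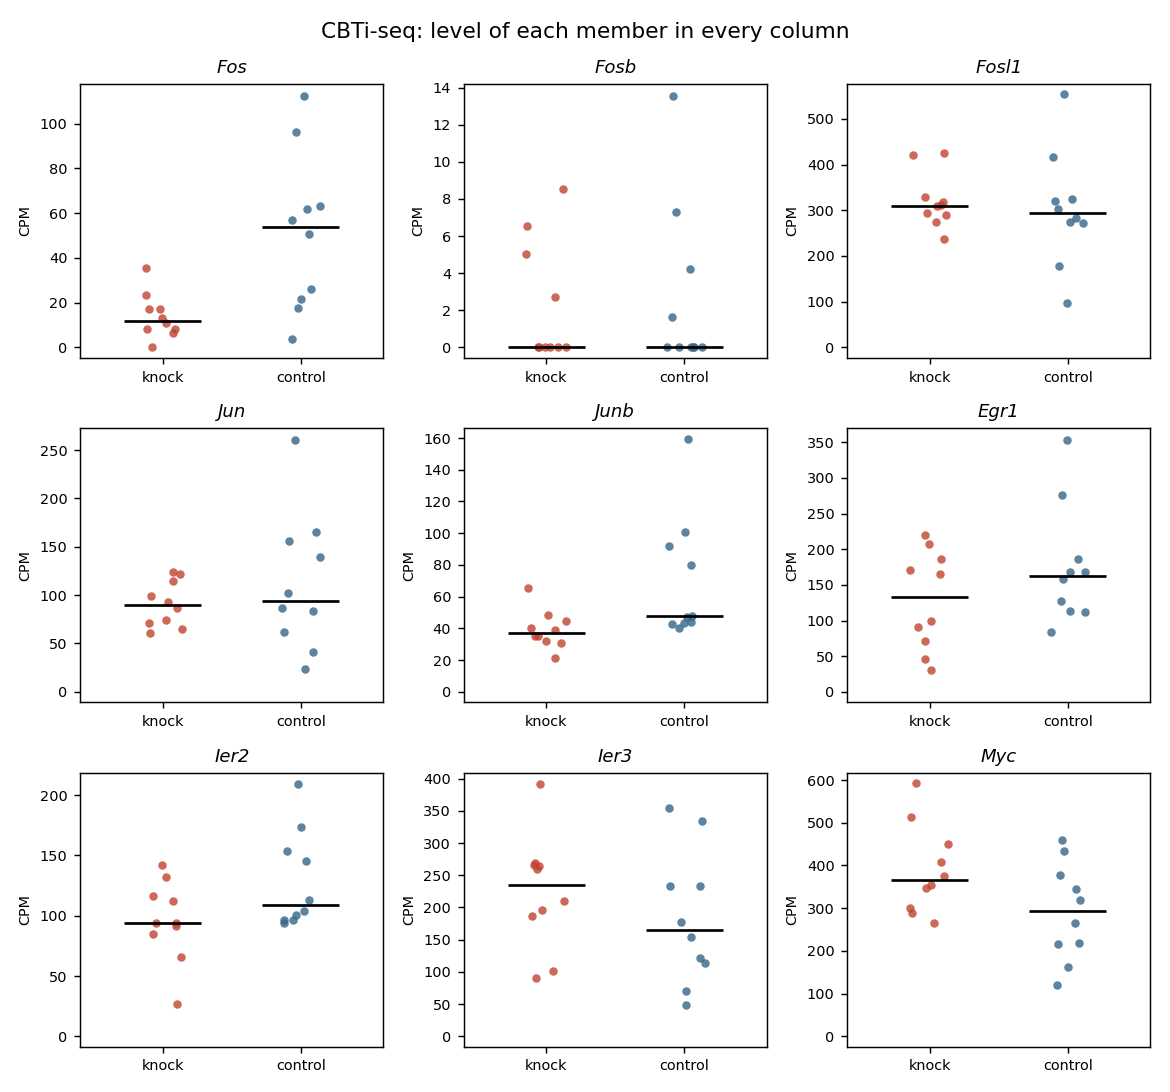
CPM of each member (vertical axis, linear) in every CBTi-seq column, 10 knock (left, red) and 10 control (right, blue); bars are medians over columns. All 10 knock columns of Fos lie below the control median of 53.8 CPM, while the columns of every gene overlap between groups.

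Fos, the founding AP-1 subunit and the usual marker of an acute signal, showed the lowest ratio. The gene (ENSMUSG00000021250) codes for protein and spans 85473890 to 85477273 of chromosome 12 in GRCm38. Knock columns held 0 to 35.3 CPM with a median of 11.9, and control columns 3.65 to 112.2 CPM with a median of 53.8. In 6 control columns the level was above the highest knock column. These include control column 1, the shallowest, at 96.2 CPM on 4 counts. Summed, it was 13.4 CPM (9.85 to 17.8, from 47 counts) in knock and 44.0 CPM (37.7 to 51.2, from 170 counts) in control columns, a log2 ratio of -1.72 (-2.21 to -1.24). At a mean of 28.7 CPM it did not reach the limit for the fold count; from 20 CPM upward, 2.42% of genes were lower and 0.536% higher by 2-fold or further. Leaving out any 1 column gave ratios from -1.89 to -1.53. Thinned to 50000 counts a column, Fos kept 9 counts in 6 of 10 knock columns and 22 counts in 7 of 9 control columns.

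Fosl1 encodes FRA1, a FOS relative that lacks the strong activation domain of FOS, and its level was alike in both groups. It lies on chromosome 19 from 5447547 to 5455946, overlapping Ccdc85b on the other strand. Knock columns held 237.1 to 424.7 CPM with a median of 310.0, and control columns 96.2 to 554.4 CPM with a median of 293.1. The lowest control level, in column 1, the shallowest, rests on 4 counts, and the next lowest was 177.4 CPM. The summed levels were 321.1 and 322.4 CPM, with a log2 ratio of -0.01 (-0.12 to 0.11). For every 100 counts of Fosl1 there were 4.17 counts of Fos in knock and 13.7 in control columns. As the summed Fosl1 levels were alike, this restates the Fos ratio and is not a separate check. The medians over single columns were 3.74 and 13.4. Fosb, the third FOS gene of the list, had 8 counts in knock and 9 in control columns, too few for a direction (log2 ratio -0.03, -1.61 to 1.52).

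Junb, a JUN protein with weaker activating capacity than JUN, came second in size. It spans 84974484 to 84978718 on chromosome 8 and overlaps Prdx2 on the other strand. Its level was 21.6 to 65.2 CPM in knock columns, with a median of 37.3, and 40.2 to 159.4 CPM in control columns, with a median of 47.8. In 6 of the 10 knock columns the level lay below the lowest control column. The log2 ratio was -0.70 (-1.002 to -0.41), and -0.39 without control column 3, which held the highest level. Jun (chromosome 4, 95049034 to 95052222), which overlaps the antisense gene Junos, was at 60.5 to 123.9 CPM in knock and 24.1 to 260.9 CPM in control columns. Its medians were 89.7 and 94.3 CPM, and its log2 ratio was -0.33 (-0.54 to -0.12). Control column 1, the shallowest, gave the lowest level of Jun from 1 count, and the next lowest control column held 41.3 CPM. In 4 control columns Jun was above the highest knock column, and without control column 9 the ratio was -0.19. The sources used here do not say whether the counting used strand, so reads of Fosl1, Jun and Junb cannot be told apart from those of the partner on the other strand.

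Egr1 and Ier2 were lower by similar amounts. Egr1 (chromosome 18, 34859823 to 34864984) ranged from 31.0 to 220.1 CPM in knock columns with a median of 132.4, and from 84.2 to 353.6 CPM in control columns with a median of 162.7. Exactly 5 knock columns lay below the control median and 5 above it. The log2 ratio of Egr1 was -0.39 (-0.56 to -0.22); it was -0.12 without control column 5 and -0.61 without knock column 10. Ier2 (chromosome 8, 84661331 to 84662852) ranged from 26.6 to 141.9 CPM in knock columns, median 94.1, and from 94.1 to 209.6 CPM in control columns, median 108.7. In 6 knock columns it was under the lowest control column, and the log2 ratio was -0.45 (-0.65 to -0.26). Those 6 include knock columns 5 and 8, at 94.09 and 94.10 CPM, which were all but level with that control column at 94.12 CPM.

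Myc and Ier3 were the members with higher levels in knock columns. Myc (chromosome 15, 61985391 to 61990374) held 265.6 to 593.7 CPM in knock columns with a median of 365.4, and 120.3 to 459.4 CPM in control columns with a median of 292.6. In 8 of 10 knock columns the level was above the control median. Its summed level was 396.1 CPM in knock and 294.4 CPM in control columns, a log2 ratio of 0.43 (0.31 to 0.54), or 0.26 without control column 9. Ier3 (chromosome 17, 35821684 to 35822923) held 90.8 to 392.0 CPM in knock columns, median 234.5, and 48.1 to 354.1 CPM in control columns, median 165.6. Its log2 ratio was 0.30 (0.15 to 0.44), but 0.06 without control column 9, 0.50 without control column 3 and -0.19 after thinning, which turned its direction. The lowest control levels of Myc and Ier3 came from column 1, the shallowest, on 5 and 2 counts. The next lowest were 163.0 CPM of Myc and 70.9 CPM of Ier3.

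In the 3' libraries the pattern was another one: Fosl1 and Ier3 were higher in the library labelled knock, Myc and Atf3 were lower, and Ier2, Jun and Junb differed little. Levels were low, and 4 of the 9 members with a count reached 20 CPM on average (Jun, Ier2, Ier3 and Myc). The 2 that reached 50 CPM were Ier2 and Ier3, of which Ier3 was past 2-fold; 17.9% of the 2826 genes at that level were. The median log2 ratio of the 4 was 0.02, with 2 higher and 2 lower. Over all 5701 genes at 20 CPM or more it was 0.18, with 58.8% higher and 41.2% lower. TMM factors, median-of-ratios factors, and totals that leave out mitochondrial and ribosomal protein genes shifted the median of genes at 50 CPM or more by -0.14 to -0.16. Under the first 2 scalings the median of the same number of members was -0.12 and -0.14; under the third, where 5 members reached 20 CPM, it was -0.03. Under the 3 scalings Ier2 was at -0.03, -0.05 and -0.03.

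**Figure D2:**
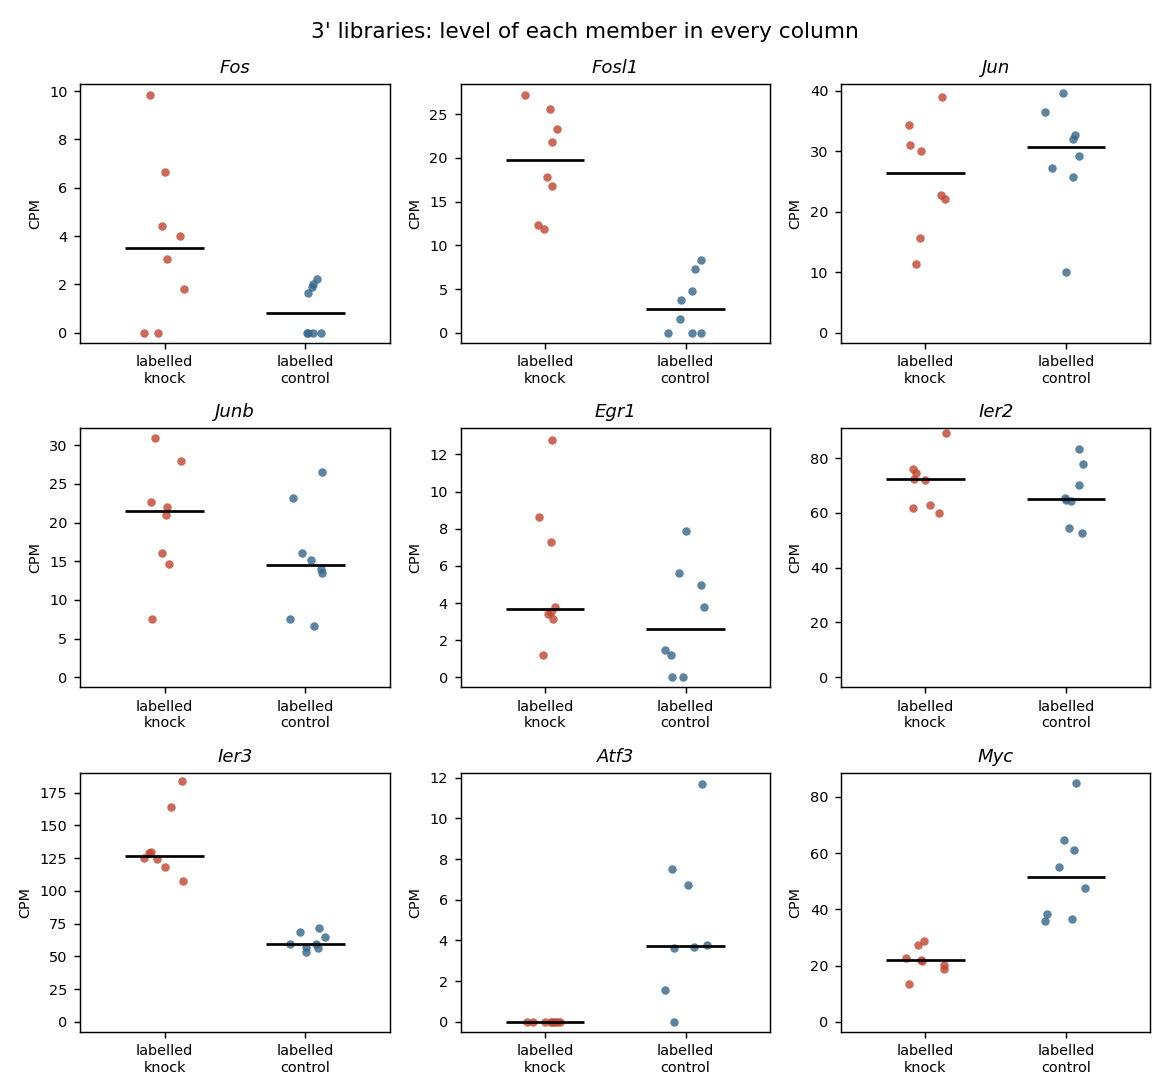
CPM of each member with a count (vertical axis, linear) in the 8 columns of the 3' library labelled knock (left, red) and the 8 of the library labelled control (right, blue); bars are medians over columns. Columns of Fosl1, Ier3 and Myc do not overlap, and Atf3 is at 0 in all 8 columns labelled knock. Of all genes at 20 CPM or more, 29.2% have columns wholly apart.

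Fosl1 had 11.9 to 27.1 CPM in the columns labelled knock, with a median of 19.8, and 0 to 8.27 CPM in those labelled control, with a median of 2.67. All 8 columns of the first library lay above all 8 of the second, where 5 held a count. Of genes at 20 CPM or more, a level Fosl1 did not reach, 29.2% had columns wholly apart. The summed counts were 184 and 26, a log2 ratio of 2.45 (1.85 to 3.10). Thinned to 50000 counts a column, 6 counts in 4 of 8 columns labelled knock and 3 counts in 3 of 8 labelled control were left, a log2 ratio of 1 on few counts. Its mean of 11.9 CPM was under the level limit. Fos itself was near the floor, with 33 counts in the library labelled knock and 9 in the one labelled control (2.83-fold, 1.32 to 6.72), and the columns overlapped.

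Ier3 was at 107.2 to 183.7 CPM in columns labelled knock, with a median of 126.9, and at 52.9 to 71.5 CPM in columns labelled control, with a median of 59.6. The columns did not overlap, and the log2 ratio was 1.18 (1.02 to 1.34). Myc had 13.6 to 28.7 CPM in columns labelled knock and 35.9 to 85.0 CPM in columns labelled control. Its columns were wholly apart in the other direction, with medians of 21.9 and 51.4 CPM and a log2 ratio of -1.19 (-1.45 to -0.94). From 20 CPM upward, 5.68% of genes were lower and 17.3% higher by 2-fold or further. Of the 5701 genes, 29.2% had columns wholly apart, so such a gap was common between these libraries.

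Atf3 was listed at 0 in every column of the library labelled knock. It had 0 to 11.7 CPM in the columns labelled control, where 7 of 8 held a count and the sum was 32 counts, or 4.53 CPM (3.10 to 6.39). That level was 13.8-fold the floor of 0.327 CPM, which 3 counts make over the library labelled knock. The 13.8-fold is not a lower bound on the difference. The exact Poisson upper limit for 0 counts in the library labelled knock was 0.403 CPM, above that floor. Atf3 spans 191170296 to 191218039 on chromosome 1, and Gm24748 lies in it on the other strand. After thinning it kept 2 counts in the library labelled control, too few to show the gap at that depth.

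The remaining members differed by less. Jun was at 11.3 to 39.0 CPM in columns labelled knock and 10.0 to 39.7 CPM in columns labelled control (log2 ratio -0.07, -0.34 to 0.20). Ier2 was at 59.9 to 89.1 and 52.8 to 83.1 CPM (0.11, -0.06 to 0.29). Junb had 177 and 109 counts (0.32, -0.03 to 0.68) and Egr1 56 and 28 counts (0.63, -0.05 to 1.33). In all 4 the columns overlapped and the counting interval included 0.

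**Figure D3:**
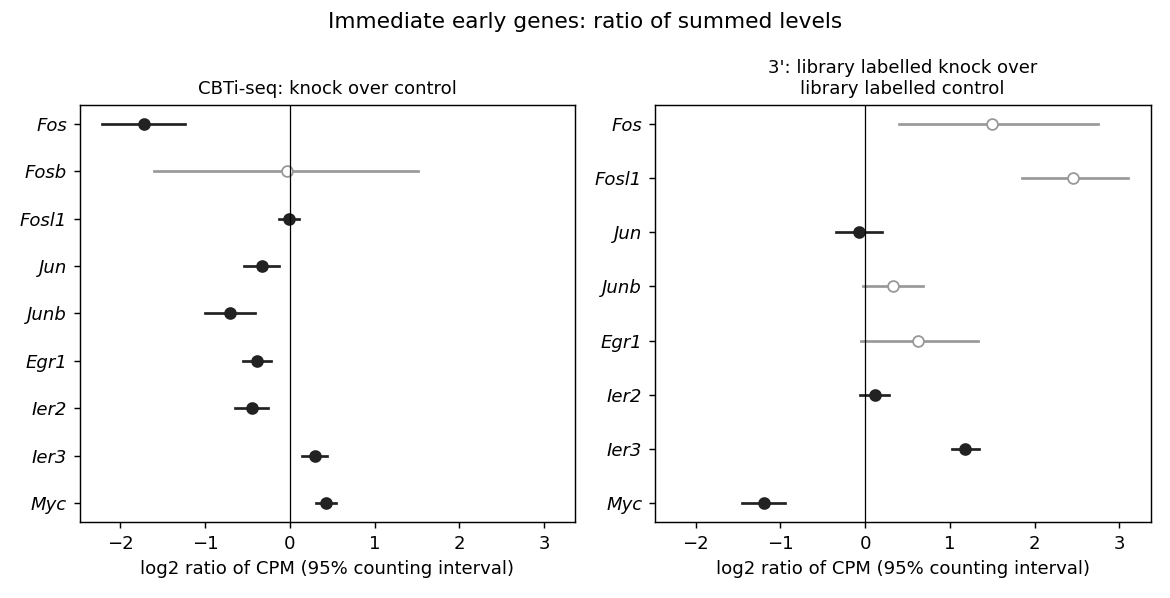
Log2 ratio of summed CPM (horizontal axis) for each member, in CBTi-seq (left) and between the 3' libraries by label (right); lines are 95% counting intervals, and open grey points are members under 20 CPM; Atf3, and Fosb in the 3' libraries, have no ratio. Fos is at -1.72 in CBTi-seq, and Fosl1 at 2.45 and Myc at -1.19 in the 3' libraries.

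Between the assays, Ier3 had log2 ratios of 0.30 in CBTi-seq and 1.18 in the 3' libraries. Myc was at 0.43 and -1.19, and Fosl1 at -0.01 and 2.45. Every 3' ratio would change sign if the labels, which Rrm2 goes against, were exchanged, so whether Myc or Ier3 goes the same way in both assays cannot be told. These differences between assays were not tested.

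Most other immediate early genes had lower levels in CBTi-seq knock columns. Of 42 further genes, 29 reached 20 CPM, with 23 lower and 6 higher and a median of -0.26, beside 55.3% lower and a median of -0.05 over all genes at that level. Zfp36, whose protein destabilises AU-rich mRNAs, was at 13.1 CPM in knock and 39.6 CPM in control columns, a log2 ratio of -1.59 (-2.10 to -1.11). Errfi1, a feedback inhibitor of the EGF receptor, was at 54.2 and 128.2 CPM (-1.24, -1.49 to -0.998). Arc, best known as an activity gene of neurons, had a ratio of -1.13 (-1.54 to -0.73), and Id2, which blocks helix-loop-helix factors, of -0.84 (-1.13 to -0.54). In the 3' libraries the 10 of these genes at 20 CPM or more all had higher levels under the knock label, with a median log2 ratio of 1.35, beside 58.8% higher and a median of 0.18 over all genes. Id1 led with 45.7 and 6.65 CPM (2.78, 2.34 to 3.25), followed by Klf6 (1.54), Mcl1 (1.53) and Hbegf (1.49).

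The cascade that acts on these genes, and the proteins they pair with, gave medians of -0.26 to -0.05 in CBTi-seq, where 55.3% of all genes were lower; the shares of upstream genes and feedback inhibitors that were lower were close to that. Upstream kinases and factors had a median of -0.05 over 20 genes, 11 of them lower, with Map2k1, the kinase MEK1, at -0.56 (-0.76 to -0.36) and Mrtfa, a coactivator of SRF, at 0.93 (0.46 to 1.40). Feedback inhibitors of MAP kinases had a median of -0.15 over 11 genes, 6 lower; the phosphatases Dusp1 and Dusp5 were at -0.52 and -0.51 and the inhibitor Spry4 at -0.58. Dimer partners and antagonists had a median of -0.26 over 14 genes, 9 lower. Nab2, a corepressor of EGR1, was at 46.2 CPM in knock and 95.3 CPM in control columns (-1.04, -1.32 to -0.77), and the MAX partner Mxi1 at -1.08 (-1.49 to -0.69). Ddit3, a stress-induced relative, was higher at 0.89 (0.74 to 1.04).

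In the 3' libraries the same lists had medians of 0.28 over 12 upstream genes, 0.58 over 4 feedback inhibitors and 0.28 over 6 partners. Atf1, a CREB relative, was at 1.35 (1.08 to 1.62), Hras at 1.31 (1.13 to 1.49), Dusp4 at 1.11 (0.79 to 1.44) and Nab1, another EGR1 corepressor, at 1.26 (0.99 to 1.54). Ddit3 was lower at -0.87 (-0.99 to -0.75).

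Genes that MYC is known to activate were mostly higher in CBTi-seq knock columns. Whether this relates to the level of Myc was not tested. Of 20 such genes 18 were higher, with a median of 0.21, beside 44.7% of all genes from 20 CPM. These targets are abundant, and 19 of them reached 50 CPM, where the median of all genes was -0.01. The share of all genes higher in knock columns at 50 CPM or more was not computed. Nolc1, a nucleolar factor, was at 310.5 CPM in knock and 210.3 CPM in control columns (0.56, 0.43 to 0.70), and the spermidine synthase gene Srm was at 0.51 (0.42 to 0.60). In the 3' libraries, where Myc was lower by label, 12 of 18 were higher, with a median of 0.40, beside 58.8% and 0.18 for all genes, a like share. Nolc1 was at 1.67 (1.42 to 1.93) and the nucleolar gene Npm1 at -1.17 (-1.26 to -1.07). AP-1 target genes had a median of 0.10 over 8 genes in CBTi-seq, 5 of them higher, beside 44.7% of all genes; Hmga1 was at 0.37, Timp1 at 0.36, Cd44 at 0.25 and Vegfa at -0.90. Of the 13 with a count in the 3' libraries 4 reached 20 CPM, and these were higher in the library labelled knock. Of all genes at that level, 58.8% were higher there and 17.3% were higher by 2-fold or further. Among the 4 were Ccnd1 (cyclin D1) at 97.4 and 14.7 CPM (2.73, 2.43 to 3.03), Cd44 at 2.26 (1.97 to 2.57) and Hmga2 at 2.12 (1.94 to 2.32). Below that level some went the other way, such as Lif with 2 counts in the library labelled knock and 18 in the one labelled control.

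**Figure D4:**
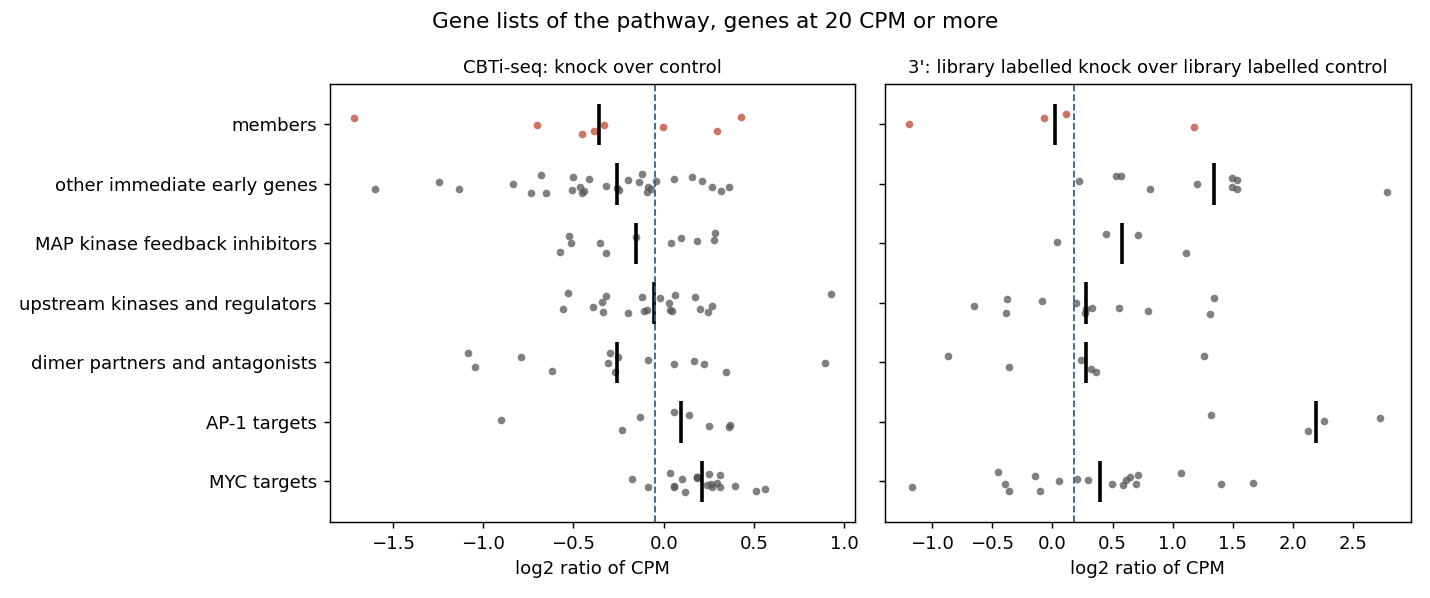
Log2 ratio of CPM (horizontal axis) for every gene at 20 CPM or more in the members (red) and 6 related lists (grey), in CBTi-seq (left) and the 3' libraries (right); black bars are list medians and the dashed line is the median of all genes. Other immediate early genes have a median of -0.26 in CBTi-seq and 1.35 in the 3' libraries.

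Several members differed more between columns of one group than the median gene near their level. Egr1 had a coefficient of variation beyond counting error of 50.7% over the knock columns, against a median of 18.8% for 3159 genes within a factor of 2 of its level. Ier3 was at 37.3% against 15.2%, and Myc at 25.1% against 13.0%. Of the genes near the level of Egr1, Ier3 and Myc, 97.4%, 94.5% and 91.5% had a smaller spread. In the control columns Fos was at 61.9% against 41.0%, Jun at 59.0% against 33.9%, and Ier3 at 54.1% against 29.7%. There 81.1%, 88.6% and 89.9% of genes near the same level had a smaller spread, so these values were less unusual. Not all members did so: Ier2 was at 23.4% in the control columns against 32.5%. In the knock columns Jun was at 16.5% against 22.9%, and Junb showed no spread beyond counting error. The control columns include the shallowest one, column 1.

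Whether members varied together was read from single columns. For each pair, log2(CPM + 1) was centred on its group mean and correlated over the 20 CBTi-seq columns. The 36 pairs of 9 members had a median Pearson's r of 0.20, from -0.28 to 0.58, and a median Spearman's rho of 0.10. All pairs of 5243 genes at 50 CPM or more had a median r of 0.13. Without control column 1 these medians were 0.12 for the members and 0.03 for all genes. Within the 10 knock columns the members had 0.26 and all genes 0.03, and within the 10 control columns 0.16 and 0.19. With so few columns and low counts these are weak relations, and no pattern of joint change is read from them. The columns share a sample and differ in depth, and the mean of the 8 members at 20 CPM or more had an r of 0.61 with log2 of the column total.

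**Figure D5:**
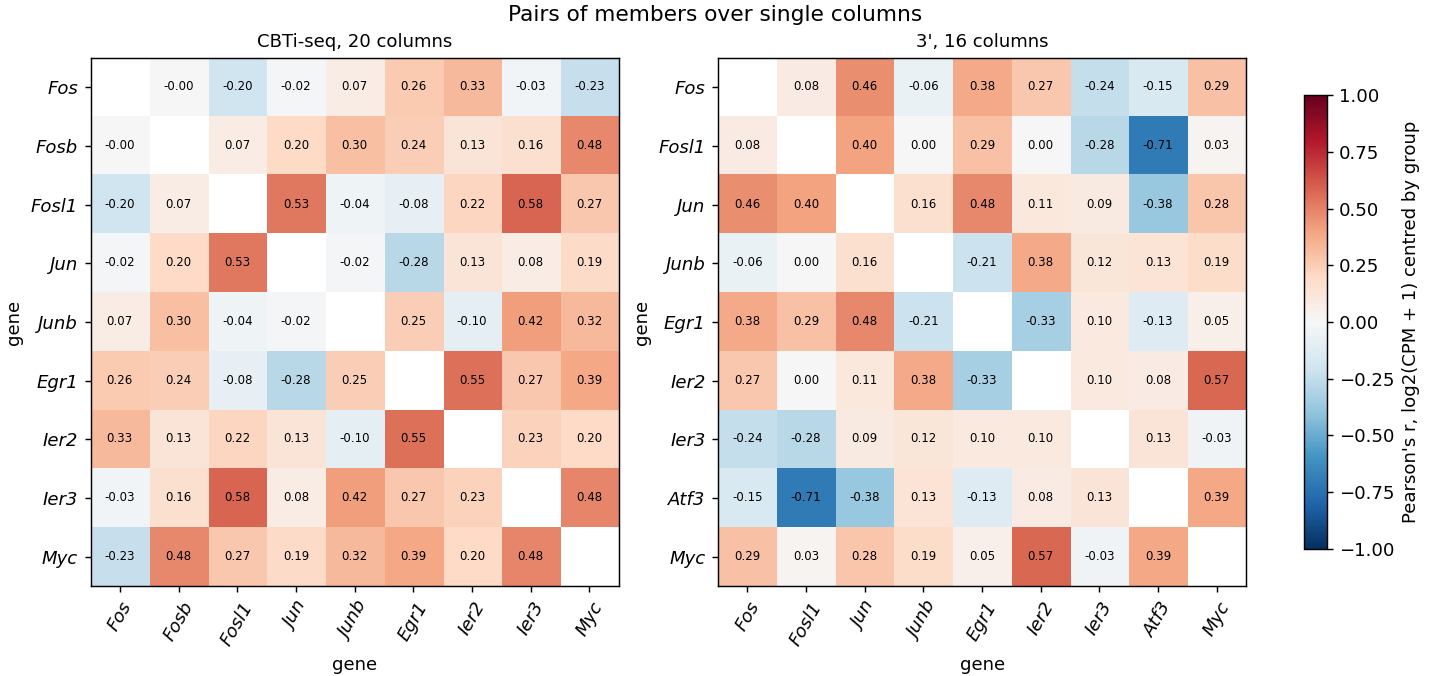
Pearson's r (colour and printed value) for each pair of members over columns, on log2(CPM + 1) centred by group, in CBTi-seq (left, 20 columns) and the 3' libraries (right, 16 columns). Egr1 and Ier2 stand at 0.55 in CBTi-seq, Jun and Egr1 at -0.28, and most pairs are weaker.

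Some pairs had a higher r. Egr1 and Ier2 reached 0.55 over the 20 CBTi-seq columns (0.56 without control column 1), with 0.56 in the knock and 0.51 in the control columns. Fosl1 and Ier3 reached 0.58 (0.35 without control column 1), with 0.54 and 0.62. Fosl1 and Jun reached 0.53, with -0.28 in the knock and 0.64 in the control columns, and 0.14 without control column 1. Fos had an r of -0.02 with Jun and 0.07 with Junb, its usual partners. Over the 16 columns of the 3' libraries the median r was 0.10, where all genes had 0.00, and many values there rest on few counts. Ier2 and Myc had the highest r, 0.57. Fosl1 and Atf3 had the lowest, -0.71, from control-labelled columns alone.

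Among 4916 protein-coding genes at 50 CPM or more, those whose CBTi-seq columns ranked most like the mean of the 8 members were Hilpda, Metap1, Hnrnpd, Ncoa3 and Dyrk1a. Their Spearman's rho over 20 columns was 0.77, 0.71, 0.70, 0.69 and 0.67, against a median of 0.11 over all these genes; they were picked as the highest, so the values are high by selection. Their Pearson's r with log2 of the column total was 0.51, 0.78, 0.56, 0.40 and 0.20; for Metap1 that exceeds its r of 0.69 with the members' mean. Without control column 1 Hilpda, a lipid droplet protein gene induced by low oxygen, was again first at 0.73, while the others ranked between 6 and 23. Hilpda itself had 63.3 CPM in knock and 60.6 CPM in control columns.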

How the data were processed

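The tables deposited by the authors hold raw, unscaled counts. The CBTi-seq counts are named as UMIs; the sources used here do not say whether the 3' counts are reads or UMIs. The submitters' processing notes list FastQC, Picard, STAR 2.7.11b, GRCm38 and GRCh38, with no roles. For counting tool, strand setting and filters, the sources used here give nothing.

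Of the 55402 IDs in the 3' tables, 55141 matched a symbol in the gene name table; GENCODE vM21 (GRCm38) gave the 1-based coordinates; rows with 1 symbol were summed. Symbols older or newer than those of a table were looked up under both names. Counts were summed per group and scaled to all gene counts. Each group was 1 sample, or shared 1 with the other group, so no test was made and calls are by size alone: a mean of 50 CPM and a log2 ratio of 1. Lists were described from 20 CPM. A floor is 3 counts summed over the group. Levels have exact Poisson and ratios exact conditional 95% intervals; these and the floors cover counting error only, and are too narrow where counts are reads.

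The members, lists and naming rule were chosen with earlier results of these data known. The rule named all members, up to 4 genes per list and assay with the largest ratios from 20 CPM, and the 5 genes most like the members over columns. Spread beyond counting error is the variance of CPM over columns less its Poisson part. The calculation was tested on simulated counts. Those for the ratios held counting error only, so they cannot show how the intervals fare with spread between columns. Alternatives were equal weights per column, TMM (edgeR 4.0.16) and median-of-ratios (DESeq2 1.42.0) factors, totals leaving out mitochondrial and ribosomal protein genes, lower and higher level limits, 1 random thinning to 50000 counts (dropping CBTi-seq control column 1), a correction for UMI collisions that assumes 5-base identifiers, and leaving out each column. Values without control column 1 in the correlations were added after seeing the data. Promoters are from RefSeq. Work was done in Python 3.11.15 with scipy 1.17.1 and in R 4.3.3.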

Additional observations from a re-analysis of the deposited data

Results flagged for a closer look

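Among 24 groups of columns (8 CBTi-seq and 4 3' members at 20 CPM or more, in each group), 2 held a single column far from the rest by Dixon's criterion, where chance flags about 1 group in 20. Control column 3 of CBTi-seq had 159.4 CPM of Junb, and the next highest control column had 101.0 CPM. Column 3 of the 3' library labelled control had 10.0 CPM of Jun, and the next lowest had 25.8 CPM. The value in column 3 rests on 4 counts in the shallowest column of the 3' libraries. Columns are not samples, and the cause of either value was not tested.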

How the results depend on the processing

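The CBTi-seq median log2 ratio of the members stayed below 0 under every alternative run, from -0.44 to -0.22 with a column left out; it was -0.17 with members from 100 CPM. No member was 2-fold apart with any column left out (0 to 0), and without a level limit 1 was (Fos). After thinning, Ier3 in CBTi-seq turned to -0.19 and Fos in the 3' libraries to 0, from 1 count in each; the cause was not tested, but thinning leaves fewer counts. The CBTi-seq median correlation was 0.10 as Spearman's rho and 0.052 after thinning, and 0.12 to 0.24 with a column left out. In the 3' libraries the median ratio was 0.48 without a level limit (8 members) and 0.62 after thinning (3 members), and -0.04 to 0.07 with a column left out. There 5 members were 2-fold apart without a limit, 0 after thinning and 1 with any column left out (1 to 1). The 3' median correlation was -0.10 after thinning and 0.04 to 0.14 with a column left out. No 3' member averaged 100 CPM over both libraries. Of 233 CBTi-seq and 168 3' values of single members, 223 and 162 stayed within their counting interval. No paired analysis was possible because the result comes from no test and columns with the same number share only a number. Depth limits Fos, Fosb, Fosl1, Junb, Egr1 and Atf3 in the 3' libraries, each under 20 CPM.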
